A study of Mus musculus with 9 samples.

Results

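Cirbp, cold-inducible RNA-binding protein, and Rbm3, RNA-binding motif protein 3, are described here library by library in mouse lung after injurious mechanical ventilation. The pair was chosen by its measured values in these same libraries, so the levels below are a description and carry no test. Both genes were found by matching gene IDs to GENCODE M21 symbols, and they account for 2 of the 27203 genes and for 9 of the 60108 transcript rows of the FPKM table, 3 rows for Cirbp and 6 for Rbm3. FPKM scales fragments to transcript length and library size, and a gene's level is the sum over its rows.

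Whole lung was taken from male C57BL/6 mice of 6 to 8 weeks, with 3 libraries in each of 3 groups. Control mice were intubated and not ventilated, and the ventilated mice received 4 hours of mechanical ventilation at a tidal volume of 20 ml/kg, which produces ventilator-induced lung injury (VILI). Lungs were collected at the end of ventilation (VILI 0 hours) or 6 hours later (VILI 6 hours), from groups of 8 mice in the study. Ketamine and xylazine gave anesthesia and pancuronium muscle relaxation, and a heating pad held body temperature during ventilation; the temperature of single mice was not analysed here. No allele, transgene or drug besides these distinguished the groups. Each library holds the RNA of all lung cells, so fewer cells of a type and less RNA per cell cannot be told apart. The 3 libraries of a group come from separate mice, so P values measure the spread between mice together with that of library preparation.

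CIRP, the protein of Cirbp, and RBM3 are close relatives with a single RNA recognition motif and a glycine-rich tail. Their mRNAs are known to accumulate in mild hypothermia and to decline in heat, the reverse of heat-shock chaperones, and part of this control acts on splicing and transcript stability. In cells both proteins bind mRNAs and influence their translation and decay, and CIRP released from cells acts as a danger signal through TLR4 and TREM-1 and drives lung inflammation. RBM3 is best known for protection of synapses and for support of translation in cooled cells.

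In GENCODE M21 (GRCm38) Cirbp lies on chromosome 10 from 80165985 to 80172786 on the plus strand and has 7 annotated transcripts, of which 2 are protein coding, 1 is a target of nonsense-mediated decay and 4 retain an intron. Rbm3 lies on chromosome X from 8138975 to 8145880 on the minus strand and has 11, namely 6 protein coding, 2 nonsense-mediated decay, 2 retained intron and 1 processed transcript. The table gives no transcript IDs, so rows are numbered by their order and cannot be assigned to one of these transcripts.

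The Cirbp promoter is shown because it is known to carry a mild-cold responsive element bound by the factor Sp1. Rbm3 had 0 windows among the RefSeq promoters used, so no element shared with Rbm3 was looked for. The sequence is the stretch of 189 bases at chr10:80167589-80167777 on the plus strand. It comes from a RefSeq start-site window (GRCm38.p6), ended before the first annotated exon that overlaps this window. The stretch lies inside the GENCODE M21 span of Cirbp, which begins at 80165985, and not before that span. Capitals mark 1 match to the mild-cold responsive element TCCCCGCC and 2 GC boxes (GGGCGG or, on the other strand, CCGCCC).

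Cirbp promoter: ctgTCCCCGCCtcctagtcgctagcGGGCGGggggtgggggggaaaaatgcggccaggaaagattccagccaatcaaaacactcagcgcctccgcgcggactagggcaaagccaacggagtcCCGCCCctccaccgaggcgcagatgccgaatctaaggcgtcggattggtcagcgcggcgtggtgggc

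The mild-cold element spans bases 80167592 to 80167599 and does not overlap the GC boxes at 80167614 to 80167619 and 80167711 to 80167716. Searched on both strands, TCCCCGCC is present in 5.38% of 32851 RefSeq promoter windows and GGGCGG in 35.7%. Neither the core of the heat shock element, GAANNTTC, found in 7.86% of windows, nor the E-box CACGTG, found in 7.15%, has a match in the printed stretch. These are matches of letters and not measured binding sites. The whole window from which the printed stretch was cut holds 3 GC boxes. RefSeq gives Cirbp a further window downstream with 0 mild-cold elements and 4 GC boxes, and it is not printed.

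Marker genes of lung cells were read first. Alveolar type 2 markers such as surfactant protein C were high in every library, at 13382 to 14663 summed FPKM for control, 13123 to 15553 for VILI 0 hours and 12533 to 13312 for VILI 6 hours. Summed neutrophil markers were 48.1 to 56.3 FPKM for control, 560.5 to 1005 for VILI 0 hours and 462.7 to 1980 for VILI 6 hours, with 8 of 8 markers higher at an unadjusted limma P under 0.05 at both times and Ly6g alone at 0 in a control. One library stood apart in these markers. In VILI 6 hours replicate 1 erythroid markers summed to 488.6 FPKM, against 3225 or more in the other 8 libraries, B cell markers stood at 0.243 of the control mean, club and ciliated markers at 1.57 and alveolar macrophage markers at 2.49. Differences of the pair, list counts at VILI 6 hours and named genes whose call against control changed are also given without this library. VILI 6 hours replicate 3 was uneven in another way, with the lowest value of 33.7% of all genes tested. No other library held the lowest value of more than 10.9% of them. Values without replicate 1 are thus an alternative and not a cleaner reading of VILI 6 hours. Column totals were 366360 to 388459 FPKM, and read totals per library were not used here.

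Cirbp was even in control lungs and scattered in ventilated lungs. The control libraries held 42.0, 39.9 and 40.5 FPKM. The VILI 0 hours libraries held 90.8, 30.6 and 37.9 FPKM. The VILI 6 hours libraries held 32.7, 63.4 and 65.7 FPKM. Ventilated libraries therefore lay on both sides of the control range at both times, with 3 above it and 3 below it, and the groups overlapped in every comparison.

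Rbm3 showed the same scatter at a higher level per length than Cirbp. Its control libraries held 89.4, 83.6 and 103.3 FPKM. At VILI 0 hours it stood at 149.1, 86.9 and 68.2 FPKM. At VILI 6 hours it stood at 50.7, 118.4 and 165.1 FPKM. Replicate 1 of VILI 0 hours and replicates 2 and 3 of VILI 6 hours were above every control for both genes, replicate 3 of VILI 0 hours and replicate 1 of VILI 6 hours were below every control for both, and VILI 0 hours replicate 2 was below the controls for Cirbp and within them for Rbm3.

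**Figure D1:**
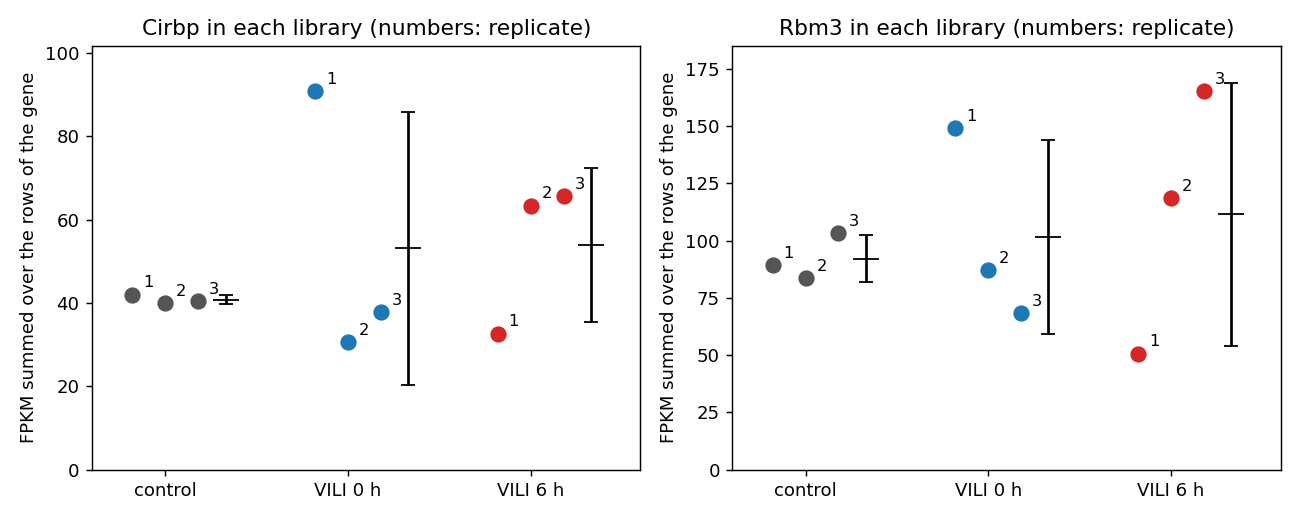
Level of Cirbp (left) and Rbm3 (right) in FPKM summed over the rows of each gene. Points are the 3 libraries of control (grey), VILI 0 hours (blue) and VILI 6 hours (red), numbered by replicate, and the black bars give mean ± SD. The control libraries lie close together, at 39.9 to 42.0 FPKM for Cirbp, whereas ventilated libraries range from 30.6 to 90.8 FPKM.

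Expressed against the control mean, Cirbp was 2.23-fold, 0.751-fold and 0.929-fold in the 3 VILI 0 hours libraries and 0.800-fold, 1.55-fold and 1.61-fold in the 3 VILI 6 hours libraries. Rbm3 was 1.62-fold, 0.944-fold and 0.741-fold at VILI 0 hours and 0.550-fold, 1.29-fold and 1.79-fold at VILI 6 hours. The widest departures were those of Cirbp upward in VILI 0 hours replicate 1 and of Rbm3 upward in VILI 6 hours replicate 3 and downward in replicate 1. Within a group, the highest Cirbp library was 1.05 times the lowest in control, 2.97 times at VILI 0 hours and 2.01 times at VILI 6 hours. For Rbm3 this ratio was 1.24, 2.19 and 3.26.

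Group means hid this scatter. Cirbp averaged 40.8 ± 1.10 FPKM for control, 53.1 ± 32.9 for VILI 0 hours and 53.9 ± 18.5 for VILI 6 hours (SD, n = 3). Rbm3 averaged 92.1 ± 10.1, 101.4 ± 42.3 and 111.4 ± 57.6 FPKM (SD, n = 3). For each gene the order was control, VILI 0 hours, VILI 6 hours, and no neighbours in that order differed beyond their spread. On the scale of log2(FPKM + 0.1), the mean difference from control was 0.21 for Cirbp and 0.07 for Rbm3 at VILI 0 hours, with a within-group SD of 0.59 and 0.42. At VILI 6 hours it was 0.33 and 0.12, with a within-group SD of 0.40 and 0.63. VILI 6 hours minus VILI 0 hours gave 0.12 and 0.05.

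Most of these means changed sign with 1 library left out, the exception among those against control being Cirbp at VILI 6 hours, which ran from 0.16 to 0.66. Without VILI 0 hours replicate 1 the difference from control at VILI 0 hours was -0.26 for Cirbp and -0.25 for Rbm3. Without VILI 6 hours replicate 1, the library that stood apart, the difference at VILI 6 hours was 0.66 for Cirbp and 0.61 for Rbm3, and without replicate 3 it was 0.16 and -0.24. Both comparisons used the same 3 control libraries. With each library centred on the median of all genes the difference was 0.33 for Cirbp and 0.18 for Rbm3 at VILI 0 hours, and 0.46 and 0.25 at VILI 6 hours.

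The scatter can be read against other genes. Among 6600 genes with a mean of at least 10 FPKM, the SD of Cirbp over the control libraries, 0.04 on the log2 scale, lay at the 16.2th percentile, so Cirbp was among the steadier genes there. At VILI 0 hours its SD of 0.83 lay at the 99.2th percentile, and at VILI 6 hours its SD of 0.57 lay at the 90.7th. Rbm3 was already uneven in control, with an SD of 0.16 at the 85.1th percentile, and stood at the 97.7th (SD 0.58) and the 96.9th (SD 0.88) in the ventilated groups. The median gene had an SD of 0.08 in control, 0.13 at VILI 0 hours and 0.21 at VILI 6 hours, so libraries of all genes were also wider apart after ventilation.

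Cirbp and Rbm3 went together over the libraries. Pearson's r between them was 0.838 and Spearman's rho 0.867 over 9 libraries on the log2 scale, and r of the deviations from the group means was 0.849. Leaving out any 1 library gave r between 0.820 and 0.885. Without the 2 libraries farthest from the median for Cirbp, VILI 0 hours replicate 1 and VILI 6 hours replicate 3, r was 0.686 over 7 libraries. The points share library, depth and group, and the pair was chosen for a common pattern. The ratio of Rbm3 to Cirbp still varied, from 1.55 in VILI 6 hours replicate 1 to 2.84 in VILI 0 hours replicate 2, with 2.095 to 2.55 in control.

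**Figure D2:**
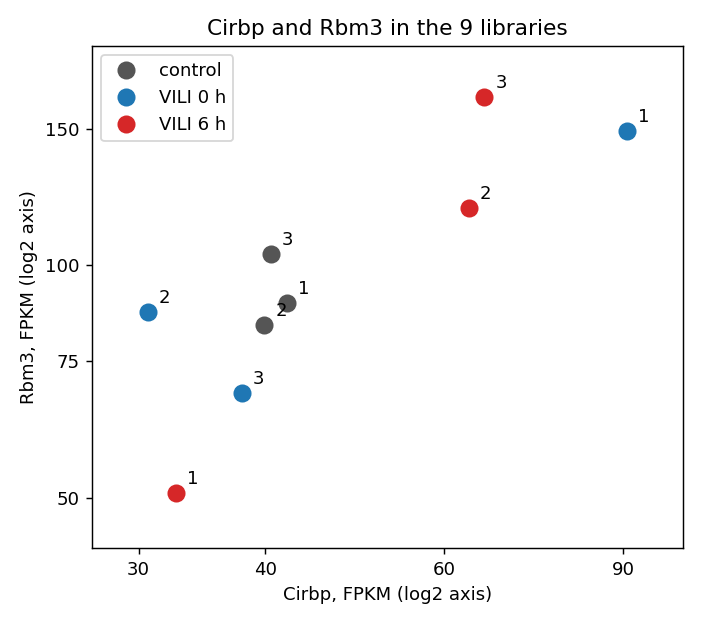
Cirbp (horizontal axis) against Rbm3 (vertical axis) in the 9 libraries, both in FPKM on log2 axes, coloured by group and numbered by replicate. Both genes are high in VILI 0 hours replicate 1 and VILI 6 hours replicates 2 and 3 and low in VILI 6 hours replicate 1, with the controls between.

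Likeness of this size was uncommon but not unique to the pair. Among 13069 protein-coding genes with a mean of at least 1 FPKM, Rbm3 ranked 157 by r to Cirbp, and Cirbp ranked 126 by r to Rbm3. An r above 0.9 was reached by 44 genes for Cirbp (0.337%) and by 28 for Rbm3 (0.214%), whereas the median r was -0.23 and -0.27. More genes stood at the opposite end, since 122 had an r under -0.9 to Cirbp and 170 to Rbm3.

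The genes most like Cirbp were Tatdn2 (r = 0.967), the SR splicing factor gene Srsf5 (0.962), the ubiquitin ligase gene Siah1a (0.961), Scyl3 (0.958) and the mitochondrial carrier gene Slc25a16 (0.957). Srsf5 held 174.4, 178.9 and 177.5 FPKM in control, 248.2, 158.9 and 181.6 at VILI 0 hours and 158.3, 207.3 and 243.0 at VILI 6 hours. Its libraries took nearly the order of Cirbp but over a narrower range, and like Cirbp it was tight in control. The genes most like Rbm3 were the histone demethylase gene Kdm5a (r = 0.974), the ubiquitin-conjugating enzyme gene Ube2g1 (0.972), the scaffold gene Erbin (0.949), the Ras exchange factor gene Sos2 (0.941) and Pigm (0.939), an enzyme of GPI anchor synthesis. Kdm5a held 16.3, 16.6 and 18.1 FPKM in control, 21.3, 16.1 and 15.4 at VILI 0 hours and 12.9, 17.7 and 20.6 at VILI 6 hours. All of these r values are over 9 libraries and describe only which genes had the most similar pattern.

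The rows of each gene did not move alike. Cirbp row 2 carried most of the gene, with 34.5, 35.0 and 34.4 FPKM in control, 86.3, 25.4 and 29.9 at VILI 0 hours and 21.9, 61.4 and 64.2 at VILI 6 hours. Cirbp row 3 went the other way, with 7.51, 4.90 and 6.11 FPKM in control, 4.57, 5.24 and 7.99 at VILI 0 hours and 10.8, 1.66 and 1.52 at VILI 6 hours. It was highest in VILI 6 hours replicate 1, where the gene total was low, and lowest in VILI 6 hours replicates 2 and 3, where the total was high. Cirbp row 1 was listed at 0 in 8 libraries and at 0.364 FPKM in VILI 6 hours replicate 2.

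Row 3 thus held a changing share of Cirbp. Its share was 17.9%, 12.3% and 15.1% in control, 5.03%, 17.1% and 21.1% at VILI 0 hours and 32.9%, 2.61% and 2.31% at VILI 6 hours. It was under every control in the 3 libraries with Cirbp above the controls and highest in VILI 6 hours replicate 1. Over 9 libraries the share had r = -0.81 and rho = -0.75 to the Cirbp sum, of which it is a part.

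Rbm3 had a row of the same kind. Rbm3 row 1 held 4.73, 6.53 and 5.26 FPKM in control, 2.90, 4.39 and 3.88 at VILI 0 hours and 7.16, 1.15 and 1.21 at VILI 6 hours. Its share of the gene was 5.30%, 7.81% and 5.09% in control, 1.94%, 5.05% and 5.69% at VILI 0 hours and 14.1%, 0.967% and 0.731% at VILI 6 hours. The shares of Cirbp row 3 and Rbm3 row 1 had r = 0.913 and rho = 0.817 over the 9 libraries. The 2 shares come from different genes on different chromosomes, and both were highest in VILI 6 hours replicate 1 and lowest in VILI 6 hours replicate 3. Which annotated transcripts these rows stand for was not settled, and a Cuffdiff value of a single transcript depends on how fragments common to several transcripts were divided.

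**Figure D3:**
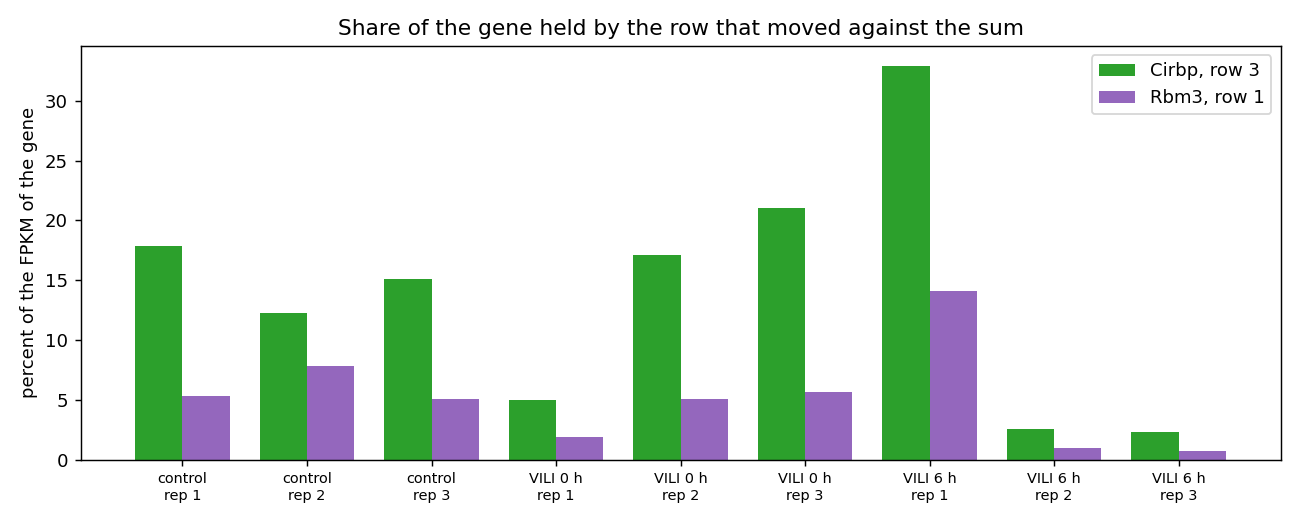
Percent of the gene's FPKM held by Cirbp row 3 (green) and Rbm3 row 1 (purple) in each of the 9 libraries. Both bars are tallest in VILI 6 hours replicate 1, at 32.9% and 14.1%, and shortest in VILI 6 hours replicates 2 and 3.

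Rbm3 rows 3 to 6 followed the gene. Row 4 held 30.6, 11.2 and 32.5 FPKM in control, 46.5, 21.2 and 22.0 at VILI 0 hours and 7.18, 41.3 and 56.5 at VILI 6 hours. It had the widest range of the rows within control, since row 5 ran only from 21 to 25.4 FPKM there and row 6 from 24.1 to 30.02. Rows 3, 4, 5 and 6 had r of 0.780, 0.942, 0.978 and 0.975 to the sum over 9 libraries. Row 2 was listed at 0 in 7 libraries and reached 0.361 FPKM at most, with r = -0.46 to the sum.

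Of the neighbours, Midn came nearest to the pair. Midn, which codes for midnolin, ends 7617 bases before Cirbp on the same strand and held 44.0, 38.4 and 36.6 FPKM in control, 50.3, 40.9 and 45.4 at VILI 0 hours and 47.0, 74.1 and 84.8 at VILI 6 hours. Every VILI 6 hours library of Midn was above the controls, with a log2 fold change of 0.75 ± 0.20 (SE, limma, Benjamini-Hochberg adjusted p = 0.105), while Cirbp was below them in replicate 1. Its r was 0.630 to Cirbp and 0.567 to Rbm3 over 9 libraries, and 0.751 and 0.842 for the deviations from group means. Without that library the log2 fold change of Midn was 1.002 (adjusted p = 0.0014). The gene 1600002K03Rik begins 158 bases past the end of Cirbp, held 2.66 to 5.62 FPKM and had r = -0.77 to Cirbp over the 9 libraries.

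Beside Rbm3, Wdr13 and Tbc1d25 held 11.2 to 16.9 and 2.42 to 4.29 FPKM and had an adjusted p of 0.28 or more at both times in limma. Their r to Rbm3 was -0.46 and 0.28. Rbm3os, a noncoding gene on the opposite strand, shares 452 bases with Rbm3 and held 0.270 to 0.984 FPKM. The sources differ on whether the libraries kept strand, so fragments of the shared stretch may count for either gene. The Rbm3os level was far below the Rbm3 level in every library, and its r to Rbm3 was 0.33.

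Genes that work with or against cold-inducible proteins were then counted in 10 lists of 127 genes, of which 120 passed the filter of a mean of 0.1 FPKM over all libraries. Counts are at an unadjusted limma P under 0.05, the threshold of the study, and adjusted p are Benjamini-Hochberg values over all 19378 genes tested. Of all genes, 6.81% were higher and 9.35% lower at VILI 0 hours than in control, and 8.17% were higher and 12.2% lower at VILI 6 hours. Adjusted p under 0.05 were reached by 0.284% and 0.702% of genes. Between VILI 6 hours and VILI 0 hours, 5.06% (981 genes) were higher and 4.94% (957) lower, and 0% had an adjusted p under 0.05. Of the 120 list genes, 22 were higher and 6 lower at VILI 0 hours, 25 higher and 7 lower at VILI 6 hours, and 10 higher and 6 lower at VILI 6 hours against VILI 0 hours. Of the genes at an unadjusted P under 0.05, 42.1% were higher at VILI 0 hours and 40.1% at VILI 6 hours, and with each library centred on its median these were 61.2% and 58.1%, the median log2 fold change of all genes going from -0.07 to 0.05 and from -0.09 to 0.04. The lists are short and were drawn up with results of these data known, so the counts describe them.

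These counts depended on the library that stood apart. Without VILI 6 hours replicate 1 the genes with an adjusted p under 0.05 numbered 1344 in place of 55 at VILI 0 hours, 4526 in place of 136 at VILI 6 hours and 362 in place of 0 between the times. These were 6.93%, 23.3% and 1.87% of the 19395 genes then tested. The list genes at an unadjusted P under 0.05 then numbered 38 in place of 28 at VILI 0 hours, 60 in place of 32 at VILI 6 hours and 33 in place of 16 between the times. All genes at an unadjusted limma P under 0.05 rose in number too. With 1 library left out they reached as many as 4495 at VILI 0 hours and 4353 between the times, in place of 3130 and 1938. Without VILI 6 hours replicate 1, 12.9% of all genes tested were higher and 26% lower at VILI 6 hours, against 8.17% and 12.2% with the library included. By list at VILI 6 hours, 4 cold-shock-domain genes were then higher and 0 lower, 2 glycine-rich genes higher and 2 lower, 1 splicing controller higher and 5 lower, and 3 heat-shock genes higher and 11 lower. For the clock genes these counts were 4 and 2, for the CIRP receptors and adaptors 5 and 1, and for the CIRP response genes 8 and 0. Stress granule genes gave 2 higher and 3 lower, mRNA partners 1 and 3, and temperature-gated channels 3 and 0. Between the times, Carhsp1, Ccl2 and Midn then had a limma adjusted p of 0.0363, 0.0145 and 0.0233, in place of 0.666, 0.144 and 0.412. Leaving out a control library gave 1 to 4 adjusted calls at VILI 0 hours and 1 at VILI 6 hours, while leaving out VILI 6 hours replicate 2 or 3 gave 23 and 17 at VILI 6 hours.

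**Figure D4:**
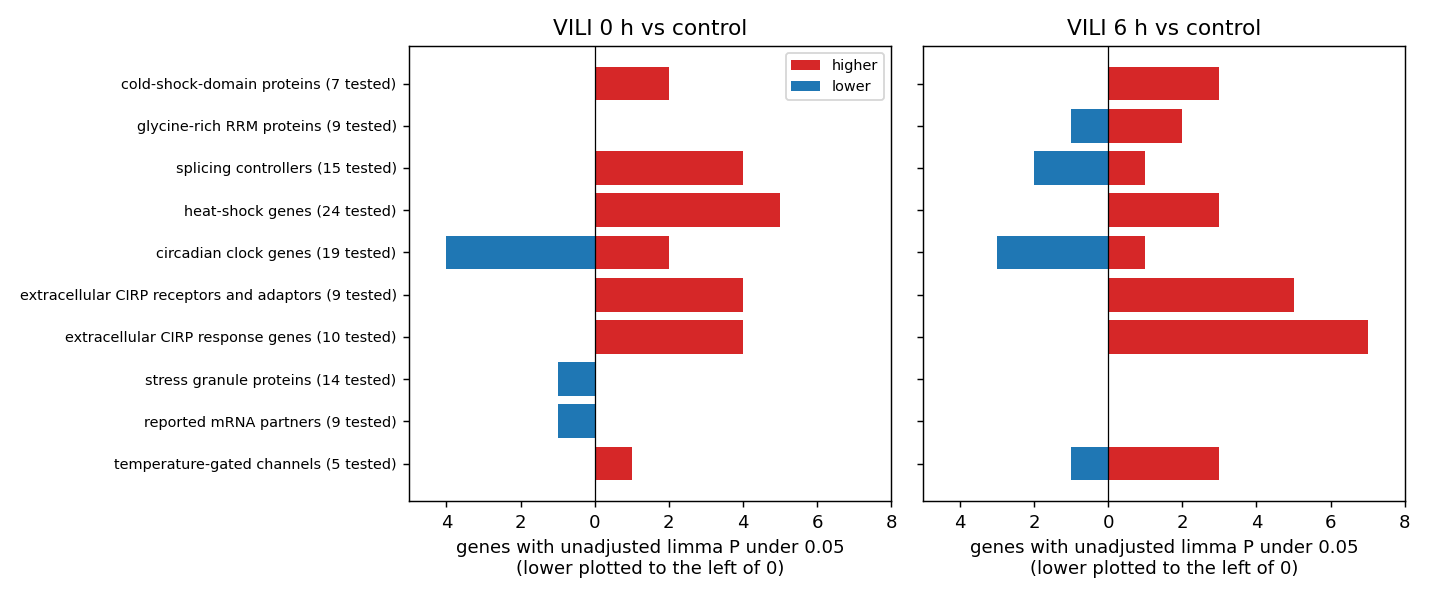
Number of genes in each list with an unadjusted limma P under 0.05, higher (red, to the right) or lower (blue, to the left) than control, at VILI 0 hours (left panel) and VILI 6 hours (right panel). The longest bar is that of the extracellular CIRP response genes at VILI 6 hours, with 7 of 10 higher.

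Relatives of the pair followed its scatter to differing degrees. Among cold-shock-domain proteins, which bind RNA through another fold, 2 of 7 were higher and 0 lower at VILI 0 hours and 3 were higher and 0 lower at VILI 6 hours, with a median log2 fold change of 0.28 and 0.14 against -0.07 and -0.09 over all genes. Ybx3, a translation repressor, held 37.8 to 39.6 FPKM in control, 43.6 to 50.2 at VILI 0 hours and 45.9 to 51.5 at VILI 6 hours, and every ventilated library was above every control (limma adjusted p = 0.178 and 0.113, the latter 0.0225 without VILI 6 hours replicate 1). Ybx1, the abundant Y-box protein of mRNA packaging, averaged 214.4 ± 7.19 FPKM in control, 259.5 ± 13.7 at VILI 0 hours and 237.4 ± 20.3 at VILI 6 hours (SD, n = 3). Its deviations from the group means had r of 0.838 to Cirbp and 0.977 to Rbm3. Carhsp1, which binds and stabilises Tnf mRNA, came nearest to the Cirbp pattern in this list (r = 0.713), with 24.03 to 25.8 FPKM in control, 42.6, 29.5 and 35.6 at VILI 0 hours and 27.2, 57.5 and 74.2 at VILI 6 hours. Its log2 fold change was 0.52 ± 0.31 and 0.97 ± 0.31 (SE, limma, adjusted p = 0.451 and 0.144), and 1.39 at VILI 6 hours without replicate 1 (adjusted p = 0.00115). Ybx2, lowest of the list at both times, had log2 fold changes of -0.25 and -0.27, and Lin28a, highest at both, held at most 0.636 FPKM.

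The 9 genes for glycine-rich proteins with RNA recognition motifs, the structural kin of CIRP and RBM3, gave 0 higher and 0 lower at VILI 0 hours and 2 higher and 1 lower at VILI 6 hours. Their median r of the deviations from group means was 0.701 to Cirbp and 0.630 to Rbm3, against -0.18 and -0.26 over all genes. Hnrnpa0 tracked Cirbp (r = 0.898), with 67.9 FPKM in VILI 0 hours replicate 1 and 45.6 to 53.7 in the other 8 libraries. Hnrnpa2b1, which also takes part in splicing and RNA transport, ran opposite to Rbm3 (r = -0.92), from 217.8 FPKM in VILI 6 hours replicate 3 to 314.1 in replicate 1. Hnrnpa3 was the highest of the list at both times (log2 fold change 0.38 and 0.72) and Rbmx, an RNA-binding splicing regulator, the lowest at VILI 6 hours (-0.43, limma adjusted p = 0.166). With VILI 6 hours replicate 1 left out, Hnrnpa3 was at 0.81 (adjusted p = 0.0483) and Rbmx at -0.56 (adjusted p = 0.0203) at that time. At VILI 0 hours the lowest was Hnrnpa2b1 (-0.15).

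Splicing controllers included genes on both sides of the pair. The list holds the CLK kinases, which phosphorylate SR proteins and are themselves sensitive to temperature, the SR proteins and Sp1, and 4 of 15 were higher and 0 lower at VILI 0 hours, and 1 higher and 2 lower at VILI 6 hours. Clk1 held 96.4, 92.8 and 120.6 FPKM in control, 146.8, 138.8 and 164.5 at VILI 0 hours and 86.6, 76.8 and 65.8 at VILI 6 hours. All VILI 0 hours libraries were above and all VILI 6 hours libraries below the controls, with a log2 fold change of 0.54 (limma adjusted p = 0.106) and -0.43 (adjusted p = 0.143), and r to Cirbp was -0.18. Its adjusted p were 0.0332 and 0.0250 without VILI 6 hours replicate 1. Srsf7 ran opposite to Cirbp (r = -0.88), whereas Srsf5 was among its closest likes. Srsf7 held 28.7 to 29.7 FPKM in control, 18.9, 27.4 and 26.7 at VILI 0 hours and 29.6, 18.8 and 17.4 at VILI 6 hours, so its low libraries were the 3 in which Cirbp was above the controls. Srsf7 also had the lowest log2 fold change of the list at both times (-0.28 and -0.45), and the highest at VILI 6 hours was that of Srsf1 (0.38), which was -0.20 without replicate 1. Srsf7 was then at -0.69 (limma adjusted p = 0.0157).

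Heat-shock genes as a group took the opposite order to the pair. The list holds 24 chaperones, co-chaperones and the factors Hsf1 and Hsf2, of which 5 were higher and 0 lower at VILI 0 hours and 3 higher and 0 lower at VILI 6 hours, with a median log2 fold change of -0.04 and 0.00. Without VILI 6 hours replicate 1, 3 were higher and 11 lower at VILI 6 hours, with a median of -0.33, against 12.9% and 26% of all genes. The median gene of the list differed from its control mean by -0.25, 0.10 and 0.12 in the VILI 0 hours libraries and by 0.50, -0.31 and -0.26 in the VILI 6 hours libraries on the log2 scale. The list median was therefore below control in the 3 libraries where both genes of the pair were above every control, and above control in the other 3. For all genes tested this median was -0.08, -0.04 and -0.07 in the VILI 0 hours libraries and 0.01, -0.09 and -0.19 in the VILI 6 hours libraries. Over 9 libraries the median r of the list was -0.67 to Cirbp and -0.78 to Rbm3, with 19 of 24 genes negative for each, against -0.17 and -0.20 over all genes. Without VILI 6 hours replicate 1 these medians were -0.65 and -0.70. In that library 58.3% of the list had its highest value, against 19.4% of all genes. In VILI 6 hours replicate 3, 37.5% of the list had its lowest value, against 33.7% of all genes.

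**Figure D5:**
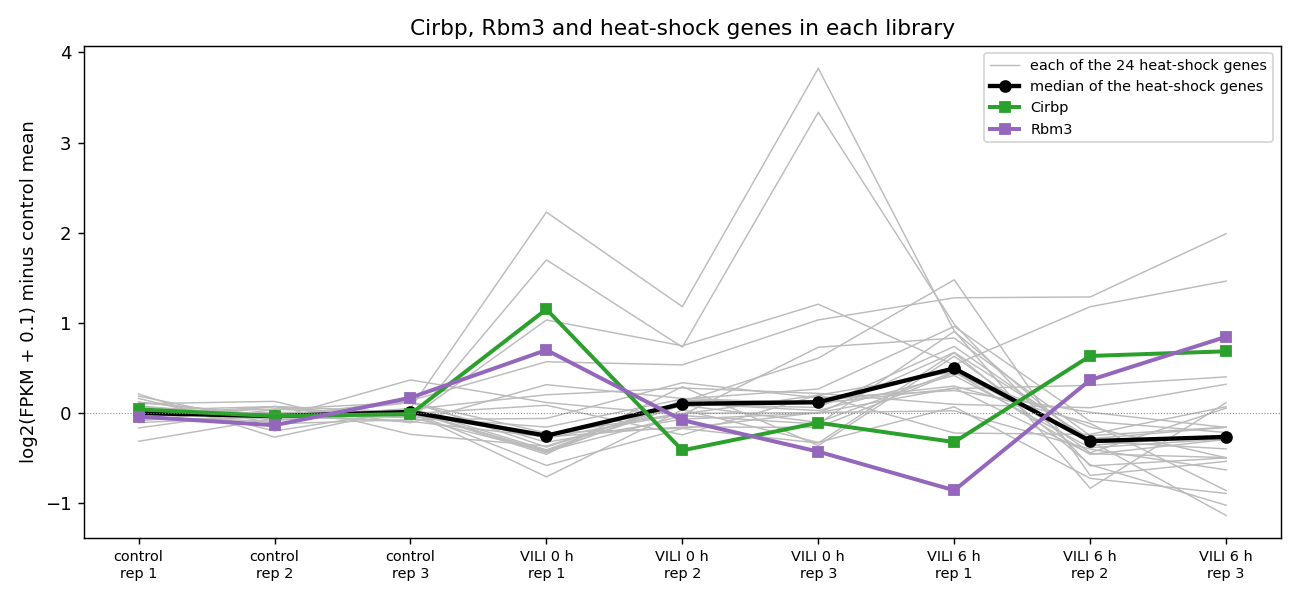
Difference of log2(FPKM + 0.1) from the control mean in each library for Cirbp (green), Rbm3 (purple), each of 24 heat-shock genes (grey) and their median (black). Lines join the values of a gene and imply no order among libraries. Cirbp is at 1.15 in VILI 0 hours replicate 1, where the heat-shock median is -0.25, and Rbm3 is at -0.86 in VILI 6 hours replicate 1, where that median is 0.50.

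Single chaperones show the reverse order. Ahsa1, an HSP90 co-chaperone, held 35.3 to 35.9 FPKM in control, 26.6, 37.7 and 33.1 at VILI 0 hours and 48.8, 28.6 and 26.95 at VILI 6 hours (r = -0.87 to Cirbp and -0.90 to Rbm3). Serpinh1, the collagen chaperone HSP47, held 59.7 to 76.96 FPKM in control, 54.5, 75.2 and 73.4 at VILI 0 hours and 117.4, 56.7 and 32.0 at VILI 6 hours (r = -0.92 to Rbm3). Both were highest in VILI 6 hours replicate 1, where the pair was low. Fkbp4 and Chordc1, further HSP90 partners, were the lowest of the list at VILI 0 hours (log2 fold change -0.36) and VILI 6 hours (-0.51), with a limma adjusted p of 0.648 and 0.281. Fkbp4 was at -0.31 at VILI 6 hours (adjusted p = 0.626). Both were lower at that time without replicate 1, Fkbp4 at -0.80 (adjusted p = 0.00922) and Chordc1 at -0.81 (adjusted p = 0.0192).

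The chaperones with the highest fold changes after ventilation did not take this order. Hspb1, the small heat-shock protein HSP27, rose at VILI 6 hours by 1.52 ± 0.20 on the log2 scale (SE, limma, adjusted p = 0.0217). It held 41.2, 43.3 and 48.9 FPKM in control, 65.9, 64.3 and 90.9 at VILI 0 hours and 107.8, 108.5 and 176.5 at VILI 6 hours, so all 6 ventilated libraries were above every control, and its r to Cirbp was 0.30. The adjusted p was 0.0529 without VILI 6 hours replicate 2 and 0.102, 0.107 and 0.144 without control replicates 1, 2 and 3, and 0.0514 with the highest row in place of the sum. Hspa1a, the inducible HSP70 gene, was highest of the list at VILI 0 hours, with 2.08 to 2.94 FPKM in control, 12.2, 5.85 and 37.1 at VILI 0 hours and 4.84, 1.37 and 2.75 at VILI 6 hours (limma adjusted p = 0.110 at VILI 0 hours, and 0.0401 without VILI 6 hours replicate 1, which enters the common estimate of the spread). It was high in VILI 0 hours replicate 1, in which Cirbp was highest, and r to Cirbp was -0.07. Hspa1a and its near-identical copy Hspa1b share reads, so the split between them is uncertain.

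The receptors and adaptors of extracellular CIRP were more often higher than lower. Of 9 genes, 4 were higher and 0 lower at VILI 0 hours and 5 higher and 0 lower at VILI 6 hours, with a median log2 fold change of 0.34 and 0.65. Trem1, a receptor of myeloid cells, held 0.623 to 0.707 FPKM in control, 3.39, 4.07 and 9.41 at VILI 0 hours and 1.73, 4.26 and 11.9 at VILI 6 hours, all above control (limma adjusted p = 0.0865 and 0.0849). Its log2 fold change was 2.74 and 3.22 without VILI 6 hours replicate 1 (adjusted p = 0.00975 and 0.0036), and without replicate 3 of that group the adjusted p at VILI 0 hours was 0.0311. Tlr4 averaged 11.6 ± 1.65 FPKM in control, 14.8 ± 2.34 at VILI 0 hours and 12.9 ± 0.811 at VILI 6 hours (SD, n = 3). Ticam2, an adaptor of TLR4, was lowest at both times (-0.18 and -0.27) and ran opposite to Cirbp (r = -0.91). Its difference turned to 0.095 at VILI 0 hours without VILI 0 hours replicate 1 and to 0.0071 at VILI 6 hours without VILI 6 hours replicate 2. Summed neutrophil markers moved with this list, as given above, and their part in it was not tested. They did not follow the pair, with r of 0.297 to Cirbp and 0.242 to Rbm3.

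Genes that extracellular CIRP is known to induce gave 4 of 10 higher and 0 lower at VILI 0 hours and 7 higher and 0 lower at VILI 6 hours, with a median log2 fold change of -0.01 and 2.14. Cxcl2, a neutrophil chemokine, had the highest log2 fold change at both times, 3.31 and 5.90 (limma adjusted p = 0.289 and 0.0878). It held 0.0463 to 0.122 FPKM in control, 0.450, 1.68 and 4.84 at VILI 0 hours and 2.30, 2.88 and 150.1 at VILI 6 hours, so replicate 3 carried the mean. Its adjusted p at VILI 6 hours was 0.0119 without replicate 1. VILI 6 hours replicate 3 was the highest for 8 of the 10 genes, against 13.9% of all genes, and it was also the highest for Rbm3. Without replicate 3 the median log2 fold change at VILI 6 hours was 1.26 and 5 genes were higher. Ccl2, a monocyte chemokine and lowest of the list at VILI 0 hours, held 0.609 to 0.895 FPKM in control, 0.302, 0.911 and 0.221 at VILI 0 hours and 2.35, 5.27 and 13.6 at VILI 6 hours (limma adjusted p = 0.0733 at VILI 6 hours, and 0.00459 without replicate 1). At VILI 6 hours the lowest was Nos2 (-0.32). Il1b, which codes for interleukin 1 beta, was above the controls in all 6 ventilated libraries, at 14 to 83.4 FPKM against 3.27 to 4.95, and its r to Cirbp was 0.11. Its limma adjusted p were 0.0757 and 0.0733, and 0.0277 and 0.0223 without VILI 6 hours replicate 1. Neutrophil markers, at 1980 FPKM in VILI 6 hours replicate 3, moved with these genes too.

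Circadian clock genes are included because CIRP is known to stabilise Clock mRNA and follows the daily rhythm of body temperature. Of 19 genes, 2 were higher and 4 lower at VILI 0 hours and 1 higher and 3 lower at VILI 6 hours, with a median log2 fold change of 0.01 and 0.09. With libraries centred on their medians, 4 were higher and 3 lower at VILI 0 hours and 2 higher and 3 lower at VILI 6 hours. Nfil3, a repressor of clock output, was the highest of the list at both times, with 1.99 to 2.90 FPKM in control, 12.1, 5.81 and 16.5 at VILI 0 hours and 7.68, 7.93 and 16.4 at VILI 6 hours (limma adjusted p = 0.0657 and 0.0587). The adjusted p of Nfil3 were 0.0175 and 0.0099 without VILI 6 hours replicate 1, 0.0381 at VILI 0 hours without VILI 6 hours replicate 3 and 0.0353 at VILI 6 hours without VILI 0 hours replicate 2. Per3 was the lowest at VILI 0 hours, with 24.1 to 32.1 FPKM in control, 4.82, 20.2 and 5.09 at VILI 0 hours and 7.46, 17.3 and 9.48 at VILI 6 hours. All 6 ventilated libraries of Nfil3 were above and all 6 of Per3 below control, whether Cirbp was high or low in that library. At VILI 6 hours Dbp was lowest (log2 fold change -1.40, limma adjusted p = 0.382), but without VILI 6 hours replicate 1 it was at -0.75 and Per3 at -1.14. Clock itself held 18.2 to 19.4 FPKM in control and 19.2 to 27.2 in ventilated lungs, with r = 0.338 to Cirbp.

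Stress granule proteins gather in stressed cells together with CIRP, and the counts of their genes did not set them apart from all genes. Of 14 genes, 0 were higher and 1, G3bp1, a core granule protein, was lower at VILI 0 hours (log2 fold change -0.27, limma adjusted p = 0.298), and 0 were higher or lower at VILI 6 hours. Of all genes, 9.35% were lower at VILI 0 hours. With centred libraries 1 gene of the list was higher and 0 lower at VILI 0 hours. Without VILI 6 hours replicate 1, 2 were higher and 3 lower at VILI 6 hours, against 12.9% and 26% of all genes. The extremes were Tia1, another granule protein, at -0.63 and -0.40 and the RNA helicase gene Ddx3x at 0.36 and 0.37, and Ddx3x was like the pair (r = 0.828 to Cirbp and 0.830 to Rbm3). They stood at -0.73 and 0.68 at VILI 6 hours without replicate 1 (limma adjusted p = 0.0459 and 0.0282). Of 9 genes whose mRNAs CIRP or RBM3 are reported to bind, 1, Vegfa, a growth factor of vessels, was lower and 0 were higher at VILI 0 hours, and 0 were higher or lower at VILI 6 hours. With centred libraries these counts were 1 higher and 1 lower at VILI 0 hours and 1 higher and 0 lower at VILI 6 hours. Vegfa averaged 294.1 ± 15.2 FPKM in control and 211.6 ± 1.28 at VILI 0 hours (SD, n = 3), a log2 fold change of -0.47 (limma adjusted p = 0.249). At the later time it was at -0.37 (adjusted p = 0.280), and at -0.57 without VILI 6 hours replicate 1 (adjusted p = 0.0224). The highest of these 9 were Clock at VILI 0 hours (0.23) and Hif1a, the hypoxia factor, at VILI 6 hours (0.47), and the lowest at both times was Tert (-0.82 and -0.85), which held at most 0.701 FPKM. Hif1a was at 0.76 at VILI 6 hours without replicate 1 (limma adjusted p = 0.0263).

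Among 11 temperature-gated ion channels only 5 passed the filter, and Trpm8 and Trpa1, the channels of cold sensing in nerves, were near or at 0. In the list 1 gene was higher and 0 lower at VILI 0 hours, and 3 were higher and 1 lower at VILI 6 hours. Trpm2, a channel opened by heat and oxidants and abundant in myeloid cells, rose at both times. It held 0.489, 0.769 and 0.457 FPKM in control, 2.21, 3.03 and 4.10 at VILI 0 hours and 2.26, 2.34 and 2.002 at VILI 6 hours, a log2 fold change of 2.25 and 1.80 (limma adjusted p = 0.0247 and 0.0257). At VILI 0 hours the adjusted p was 0.0763 and 0.1004 without VILI 0 hours replicates 2 and 3 and 0.134, 0.0616 and 0.182 without control replicates 1, 2 and 3. At VILI 6 hours it was 0.0784 and 0.0613 without VILI 6 hours replicates 2 and 3 and 0.113, 0.0986 and 0.149 without the same controls. It was 0.0544 at VILI 0 hours with no filter and 0.0514 at VILI 6 hours with the highest row in place of the sum. Its r to Cirbp was 0.09, and neutrophil markers were higher in the same 6 libraries. Trpm4, lowest at VILI 0 hours (-0.22), ran opposite to Cirbp (r = -0.87), and Trpm5, lowest at VILI 6 hours (-0.82), held at most 0.224 FPKM.

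Markers of lung cells were also set beside the pair. Endothelial markers followed it most closely, with r of 0.844 to Cirbp and 0.898 to Rbm3 over 9 libraries. Their summed level ran from 764.0 to 945.2 FPKM, and Cirbp ran over a 2.97-fold range. Alveolar type 1 markers had r of -0.60 and -0.75 and alveolar type 2 markers -0.43 and -0.01. T cell markers had r of 0.521 and 0.738, and club and ciliated markers -0.46 and -0.74. Erythroid markers, low in VILI 6 hours replicate 1, had r of 0.360 and 0.604. The part of cell composition in the pattern of the pair was not tested.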

How the data were processed

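The table holds FPKM per transcript, deposited by the authors after adapter, poly-N and low-quality reads were removed. Per the labels, reads were aligned with Bowtie2 2.0.6 and TopHat2 2.0.9 to GRCm38 and FPKM were estimated with Cuffdiff 2.1.1; the study also assembled transcripts with Scripture and Cufflinks. The labels name a TruSeq kit and the study's methods a directional kit on rRNA-depleted RNA, so strand was not settled. FPKM carry no counts, so the precision of a value was taken only from the spread of 3 libraries per group.

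FPKM were summed over the rows of a gene, and 23503 of 23713 Ensembl IDs matched GENCODE M21. In R 4.3.3, limma 3.58.1 with a trended prior (eBayes) was fitted to log2(FPKM + 0.1) of 19378 genes with a mean of at least 0.1 FPKM, all 9 libraries in one fit with group as the only factor, with Benjamini-Hochberg adjustment over these genes. The pseudocount understates fold changes of genes near 0.1 FPKM. The fit was tested on simulated data with 200 of 19378 genes changed by a log2 of 2. It recovered 97.5% of them for VILI 0 hours against control at an adjusted p under 0.05. All 9 simulated libraries were given the control spread of each gene, and the changed genes had a mean log2(FPKM + 0.1) above 0. Among genes of at least 10 FPKM the median SD was 0.08 in control, 0.13 at VILI 0 hours and 0.21 at VILI 6 hours. The recovered share is therefore not the power in these data. Cirbp and Rbm3 were given no test, and correlations across libraries are descriptions without P values.

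The members and all gene lists were chosen with earlier results of these data known. Named list genes are those with the highest and lowest log2 fold change in each list at each time and those with an adjusted p under 0.05. For each member the 5 protein-coding genes with the highest r, and the nearest genes, were named as well. Genes given besides these (Ybx1, Ybx3, Carhsp1, Hnrnpa0, Clk1 between the times, Ahsa1, Serpinh1, Tlr4, Il1b, Ccl2 at VILI 6 hours, Vegfa and G3bp1 among them) were picked after their values were seen. Alternatives were pseudocounts of 1 and 0.01, a mean of at least 1 FPKM, no filter, libraries centred on their median, the replicate number as a block, the highest row per gene in place of the sum, and each library left out in turn.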

Additional observations from a re-analysis of the deposited data

Results flagged for a closer look

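Among the genes given beside Cirbp and Rbm3, 2 had every VILI 0 hours library on one side of all controls and every VILI 6 hours library on the other. Clk1, a kinase of splicing factors, stood above the controls at VILI 0 hours and below them at VILI 6 hours, with a difference between the times of -0.98 on the log2 scale (limma, Benjamini-Hochberg adjusted p = 0.115, the lowest such value between the times). Without VILI 6 hours replicate 1 it was -1.07 (adjusted p = 0.0141). Icam1, an adhesion molecule for leukocytes, went the other way, from 86.2 to 108.5 FPKM at VILI 0 hours, against 117.1 to 126.6 in control, to 141.5 to 278.7 at VILI 6 hours, a difference of 0.88 (adjusted p = 0.286). Cirbp and Rbm3 did not meet this condition, since their ventilated libraries lay on both sides of the controls at both times.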

How the results depend on the processing

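The log2 differences of Cirbp and Rbm3 moved by less than the SD within groups under the alternatives computed for them. These were other pseudocounts, centring, the replicate block, the highest row per gene and leaving out 1 library. With 3 libraries per group, leaving out 1 library cannot move a difference by more than this SD, and the block leaves it unchanged. For these alternatives the bar is therefore no measure of stability, and most differences changed sign with 1 library left out. Their r was 0.820 to 0.887 with a pseudocount of 1, the highest row per gene, the FPKM scale or 1 library left out, and 0.686 with the 2 libraries farthest from the median of Cirbp left out. Leaving out 1 library gave differences from -0.26 to 0.52 for Cirbp and -0.25 to 0.31 for Rbm3 at VILI 0 hours against control, 0.16 to 0.66 and -0.24 to 0.61 at VILI 6 hours, and -0.19 to 0.59 and -0.31 to 0.54 between the times. The same step gave 1978 to 4495, 2540 to 7540 and 1406 to 4353 genes at an unadjusted P under 0.05 in these 3 comparisons, 1 to 1344, 1 to 4526 and 0 to 362 with an adjusted p under 0.05, and 17 to 38, 23 to 60 and 10 to 33 list genes.

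Adjusted calls depended on the setting. At VILI 0 hours, 55 became 7 with the highest row per gene, 1 without a filter and 15 with a pseudocount of 1. At VILI 6 hours, 136 became 11 with the highest row per gene and 75 without a filter. No pairing by replicate number was seen in the deviations from the group means. They correlated between -0.22 and 0.0175 for libraries of the same number, and 1 of 9 libraries correlated best with its own number. Whether libraries of the same number shared a batch was not tested. With the replicate number as a block there were 10 and 43 adjusted calls, and Trpm2 had an adjusted p of 0.0605 and 0.0611.

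The 51 results of single genes named by rule leave out genes picked after their values were seen. Among them only Hspb1 at VILI 6 hours and Trpm2 at both times had a call to lose. Of 806 alternatives, 760 kept direction and side of an adjusted p of 0.05, mostly results without a call that stayed without one. Another 19 lost the call, all of them for Hspb1 or Trpm2. A further 19 gained it, and 8 turned the sign of a gene without a call. These were 1600002K03Rik at VILI 0 hours (0.072 with centring, and -0.21 to 0.15 over the libraries left out, positive without VILI 0 hours replicate 1 or control replicate 1), Srsf1 at VILI 6 hours (-0.20 to 0.77, negative without VILI 6 hours replicate 1), Tbc1d25 (1.07) and Ybx2 (0.51) at VILI 0 hours with the highest row per gene, and Ticam2 at VILI 0 hours (-0.43 to 0.095, positive without VILI 0 hours replicate 1) and VILI 6 hours (-0.69 to 0.0071, positive without VILI 6 hours replicate 2). The cause was not tested.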
